A study of Mus musculus with 8 samples.

Results

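Genes of the cell cycle and of mitosis were followed in mouse livers that lack normal DNA repair. The group holds 57 genes chosen by symbol, out of 55487 rows of the deposited table of raw RNA-seq counts, and all 57 were found there. They comprise 15 S-phase genes (DNA replication and nucleotide supply), 27 mitotic genes, 8 regulators of the passage from G1 into S phase, 2 regulators of G2 and mitosis, and 5 other genes of cycling cells. Livers of 3 genotypes were sequenced as total RNA, 1 library per mouse, with mice labelled female in each group. The Ercc1-/Δ mice (n = 2, aged 15.1 and 13.7 weeks) lack most function of ERCC1, the partner of the XPF nuclease in excision and crosslink repair, and the symbols name a null and a hypomorphic allele. The NemoDK;Ercc1-/Δ mice (n = 2, both 11.8 weeks) carry the same Ercc1 alleles and an allele of Nemo, whose product is the non-catalytic part of the IKK complex upstream of NF-κB. The labels do not explain DK, nor do they say whether that allele acts in the whole animal. These livers are called compound mutant below. The WT mice (n = 4) were 10.7, 12.3, 11.1 and 11.8 weeks old. Both Ercc1-/Δ mice were older than every other mouse, so genotype and age cannot be told apart in comparisons with that group. Strain background and littermate relations were not given in the sources used here.

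Most hepatocytes of an adult liver rest outside the cell cycle and re-enter it when tissue is lost. Entry is driven by D-type and E-type cyclins, which release E2F transcription factors from the retinoblastoma family. E2F factors switch on the genes of DNA replication, and FoxM1, B-Myb and the MuvB core later switch on the genes of mitosis. In resting cells, and when p21 is induced by p53, the DREAM complex holds many of these genes silent. DREAM and the activating complexes bind mitotic promoters through a short element called the cell cycle genes homology region (CHR), often beside CCAAT boxes bound by NF-Y, whereas many S-phase promoters carry E2F sites. Hepatocytes also become polyploid when cytokinesis fails after birth, and E2F7 and E2F8, which repress other E2F targets, promote that change.

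The promoters of 5 members show these elements, and they are printed because the comparison of S-phase with mitotic members, below, turns on genes of both kinds. Each is the RefSeq window (mouse build GRCm38.p6) from 250 bases before the transcription start to 50 after it, read 5′ to 3′ along the gene's strand. Capitals mark a CHR (spelled TTTGAA in some promoters and TTTAAA in others), a CCAAT box (CCAAT) or an E2F site (TTTGGCGC, TTTCCCGC, TTTCGCGC or TTTGCCGC) on either strand. Matches that run into each other are counted separately. Mcm3 (chr1:20820263-20820562, minus strand) and Mcm6 (chr1:128359656-128359955, minus strand) encode subunits of the replicative helicase, Ube2c (chr2:164769679-164769978, plus strand) encodes a ubiquitin-conjugating enzyme of the anaphase-promoting complex, Plk1 (chr7:122159185-122159484, plus strand) a mitotic kinase and Ccnb1 (chr13:100786437-100786736, minus strand) cyclin B1.
Mcm3: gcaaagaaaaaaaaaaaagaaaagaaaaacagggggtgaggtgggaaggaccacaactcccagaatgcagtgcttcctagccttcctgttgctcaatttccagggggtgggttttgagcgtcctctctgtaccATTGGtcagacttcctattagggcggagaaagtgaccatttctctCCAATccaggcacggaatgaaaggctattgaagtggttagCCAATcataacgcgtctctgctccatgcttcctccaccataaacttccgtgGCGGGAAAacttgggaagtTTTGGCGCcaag
Mcm6: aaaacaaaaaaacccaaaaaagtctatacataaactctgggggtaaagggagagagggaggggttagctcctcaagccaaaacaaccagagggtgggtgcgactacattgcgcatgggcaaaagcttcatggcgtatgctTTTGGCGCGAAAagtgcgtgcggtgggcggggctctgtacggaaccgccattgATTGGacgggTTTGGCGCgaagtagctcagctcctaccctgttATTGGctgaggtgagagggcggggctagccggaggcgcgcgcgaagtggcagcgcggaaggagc
Ube2c: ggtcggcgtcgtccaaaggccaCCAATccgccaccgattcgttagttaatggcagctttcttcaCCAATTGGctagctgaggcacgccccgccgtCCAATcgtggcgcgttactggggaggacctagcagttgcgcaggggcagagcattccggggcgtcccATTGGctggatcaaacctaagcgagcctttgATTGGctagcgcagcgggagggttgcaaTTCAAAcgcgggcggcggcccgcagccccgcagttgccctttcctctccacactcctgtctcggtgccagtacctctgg
Plk1: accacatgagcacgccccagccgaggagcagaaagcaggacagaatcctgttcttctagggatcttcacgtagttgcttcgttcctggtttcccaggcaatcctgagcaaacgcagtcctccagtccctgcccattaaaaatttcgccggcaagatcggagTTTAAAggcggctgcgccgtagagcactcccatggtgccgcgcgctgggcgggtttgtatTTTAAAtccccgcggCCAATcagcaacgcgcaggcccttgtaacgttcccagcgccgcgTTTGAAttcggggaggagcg
Ccnb1: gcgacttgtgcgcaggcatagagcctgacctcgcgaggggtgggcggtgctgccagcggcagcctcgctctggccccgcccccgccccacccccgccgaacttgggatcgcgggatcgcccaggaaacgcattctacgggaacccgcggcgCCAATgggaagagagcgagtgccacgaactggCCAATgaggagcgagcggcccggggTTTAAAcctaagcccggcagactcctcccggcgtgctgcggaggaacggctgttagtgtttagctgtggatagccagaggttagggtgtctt
The Mcm3 and Mcm6 windows hold 2 and 3 E2F sites and no CHR. The Ube2c, Plk1 and Ccnb1 windows hold 1, 3 and 1 CHR matches and no E2F site. All 5 windows hold at least 1 CCAAT box.

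Among all members with a RefSeq promoter (46 of 57 genes, 50 promoters), the elements were divided by class. A CHR stood in 5 of 14 promoters of S-phase members (35.7%) and in 22 of 25 of mitotic members (88.0%), beside 27.6% of all 32851 promoters in the table. An E2F site stood in 42.9% of S-phase and 4.0% of mitotic promoters, beside 2.26% of all promoters. CCAAT boxes stood in 71.4% of S-phase, 84.0% of mitotic and 37.4% of all promoters. The mitotic promoters without a CHR in this window were those of Nusap1, Bub1 and Mad2l1, and the 1 mitotic promoter with an E2F site was that of Cdk1. A CHR was present in 69.2% of the 26 promoters of members called higher in Ercc1-/Δ livers and in 62.5% of the 24 promoters of the remaining members, a smaller contrast than that between the classes. These matches are letters in a window, and binding was not measured.

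**Figure D1:**
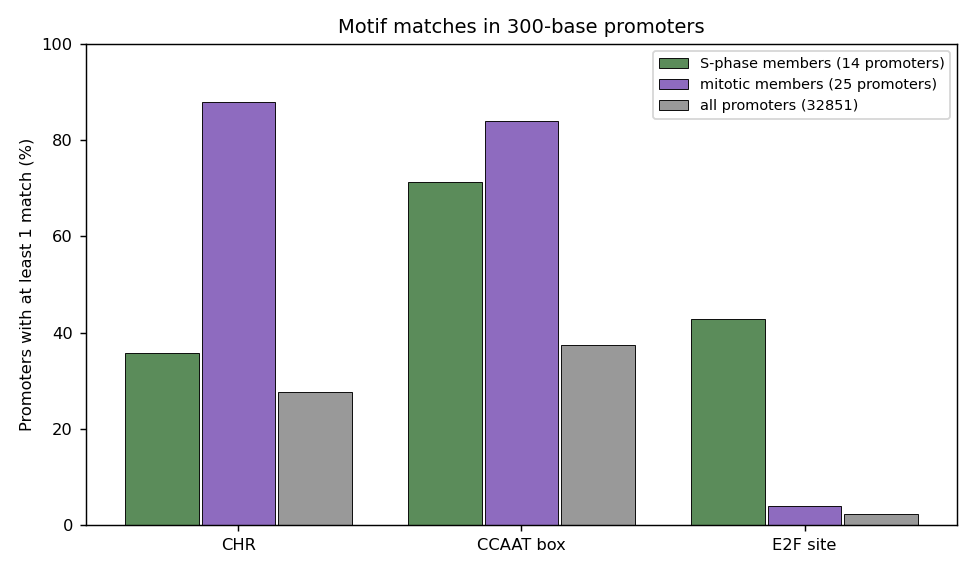
Share of promoters (percent, vertical axis) with at least 1 match to each element (horizontal axis), for S-phase members (14 promoters), mitotic members (25) and all 32851 promoters of the RefSeq table. The CHR bar is 88.0% for mitotic and 35.7% for S-phase members, while the E2F bar is 42.9% for S-phase and 4.0% for mitotic members.

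Library totals ran from 21556570 to 27812478 counts. Ercc1 transcript was 1.76 and 1.49 CPM in Ercc1-/Δ livers, 1.87 and 1.86 CPM in compound mutant livers, and 5.04, 2.57, 3.58 and 4.44 CPM in WT livers 1 to 4, lower in each mutant liver than in any WT liver (CPM, the usual counts-per-million scale, with TMM factors). Ikbkg, the gene of NEMO, had 81.9 and 71.9 CPM in compound mutant livers, against 93.3 and 84.0 CPM in Ercc1-/Δ livers and 56.8, 56.9, 68.4 and 63.4 CPM in WT livers, and the labels do not say whether the allele alters this transcript. The RNA of WT library 3 did not match its label of a female mouse, since Xist was at 0 counts there (9331 to 15744 elsewhere) and 4 Y-linked genes summed to 3087 counts. It was kept, and counts without it are given below. The hepatocyte markers Alb, Apoa1, Apob, Ttr, Fgb, Hnf4a, Cps1, Cyp2e1 and Asgr1 were present in every library. Of the 57 members 56 passed a filter on low counts and were tested among 15598 genes, and Cdc25c, which encodes a phosphatase that activates CDK1, was not, with 25 and 9 counts in Ercc1-/Δ livers, 7 and 4 in compound mutant livers, and 1, 2, 0 and 9 in WT livers.

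Livers of both mutant genotypes held more transcript of most cell cycle genes than WT livers. In Ercc1-/Δ against WT, 30 of the 56 tested members rose and 1, the thymidine kinase gene Tk1, fell (edgeR, adjusted p under 0.05). Here and below, a gene is said to rise or fall where it passed this threshold. Over all tested genes 11.3% were called higher and 9.5% lower in that comparison. The median log2 fold change of the members was 1.68, with a range from -2.00 to 4.06, beside -0.00 over all genes. In 43 members every Ercc1-/Δ library stood above every WT library, and in 2 every one stood below, where 21.3% of all genes did so in each direction. In compound mutant against WT livers 11 of the 56 rose and 0 fell, where 10.6% of all genes were called higher and 7.4% lower. The members that rose there were Ccne2, E2f1, Foxm1, Mcm6, Plk1, Pbk, Melk, Mad2l1, Ube2c, Kif4 and Nusap1. Their comparison had a member median of 1.34, beside 0.00 over all genes, and every compound mutant library stood above every WT library in 39 members (24.8% of all genes) and below in 2 (22.1% of all genes). Both comparisons use the same WT libraries, so they are not independent of each other. Where a fit without 1 mutant library is given below, its genotype kept 1 mouse, assumed to vary like the other groups. In bulk liver RNA, more cells of a cycling type and more transcript per cell cannot be told apart.

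**Figure D2:**
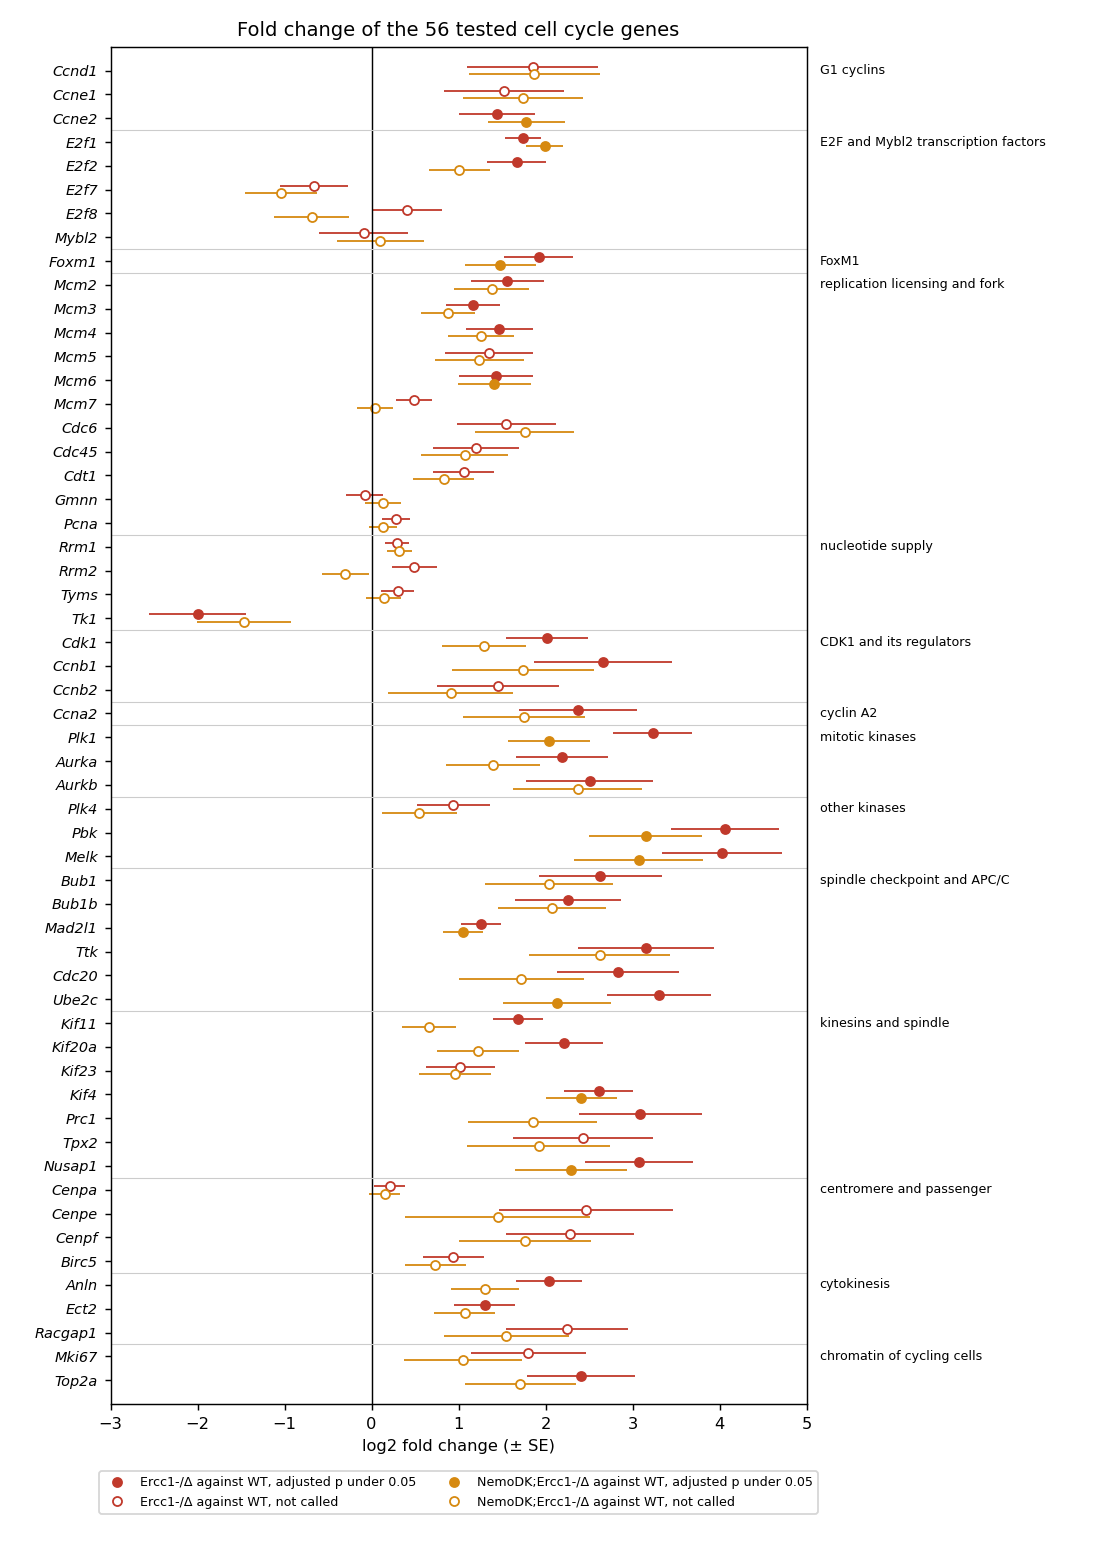
Log2 fold change (horizontal axis, with bars of 1 SE) of the 56 tested members in Ercc1-/Δ against WT and in NemoDK;Ercc1-/Δ against WT livers, ordered by role. Filled points are members with adjusted p under 0.05, and Tk1, at -2.00 in Ercc1-/Δ, is the filled point left of 0.

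Most of these transcripts were rare. Per kilobase of exon, the members with the highest level in WT livers were Ccnd1 (77.9 CPM per kb in Ercc1-/Δ, 78.7 in compound mutant and 21.5 in WT livers), Tk1 (3.67, 5.33 and 14.7 CPM per kb in the same order) and Pcna (12, 10.8 and 9.84 CPM per kb). Mitotic members were far below these, with Plk1 at 1.52 CPM per kb in Ercc1-/Δ, 0.662 in compound mutant and 0.156 in WT livers. Melk was the lowest in WT livers, with 0.333 CPM per kb in Ercc1-/Δ, 0.170 in compound mutant and 0.018 in WT livers. The 4 WT libraries held 5 Melk, 10 Pbk, 11 Ttk and 11 Bub1 counts in all, so the fold changes of these genes rest on few WT reads.

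Cyclins of G1 were higher in mutant livers on average, with wide spread among WT livers. Ccnd1, which encodes cyclin D1, the cyclin that starts the cycle in hepatocytes, had 438 and 296 CPM in Ercc1-/Δ livers, 346 and 395 CPM in compound mutant livers, and 82.6, 47.8, 20.3 and 255 CPM in WT livers 1 to 4. WT library 4 came close to the lowest mutant library while WT library 3 was the lowest of all, and the groups did not overlap. The log2 fold change was 1.85 ± 0.75 (adjusted p = 0.114) in Ercc1-/Δ and 1.87 ± 0.75 (adjusted p = 0.12) in compound mutant livers, which did not pass, and without WT library 4 it was 2.87 and 2.88 and passed. Ccne1, 1 of the genes of cyclin E, which opens S phase, had 5.39 and 1.83 CPM in Ercc1-/Δ livers, 3.06 and 5.34 CPM in compound mutant livers and 0.194, 0.957, 2.45 and 1.35 CPM in WT livers. WT library 3 lay above Ercc1-/Δ library 2, and neither comparison passed (1.52 ± 0.69, adjusted p = 0.15 and 1.74 ± 0.69, adjusted p = 0.113). Ccne2, the other cyclin E gene, had 2.35 and 2.34 CPM in Ercc1-/Δ livers, 1.87 and 4.11 CPM in compound mutant livers and 0.436, 0.655, 1 and 1.31 CPM in WT livers. Every mutant liver was above every WT liver. Ccne2 rose by 1.44 ± 0.44 (adjusted p = 0.0498) in Ercc1-/Δ livers, a call that ended without any library other than WT library 4 (1.24 to 1.53, highest adjusted p 0.170), and by 1.78 ± 0.44 (adjusted p = 0.0257) in compound mutant livers, which ended without compound mutant library 2 (1.11, adjusted p = 0.265) or WT library 2 (1.67, adjusted p = 0.0509).

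Both activator E2F genes among the members, E2f1 and E2f2, rose in Ercc1-/Δ livers, and neither repressor E2F gene among them passed the test. E2f3, which is not a member, is given with the further lists below. E2f1 (ENSMUSG00000027490, chr2:154559407-154569892, minus strand), which encodes the activator that the retinoblastoma protein restrains, had 8.43 and 6.62 CPM in Ercc1-/Δ livers, 9.37 and 8.6 CPM in compound mutant livers and 1.74, 2.72, 1.97 and 2.59 CPM in WT livers. All 4 mutant livers were far above all 4 WT livers, and the spread within each group was small. The rise was 1.74 ± 0.21 (adjusted p = 0.00153) in Ercc1-/Δ and 1.99 ± 0.21 (adjusted p = 0.000908) in compound mutant livers, and both calls held when any library was left out. E2f2, the gene of another activator, had 7.66 and 3.36 CPM in Ercc1-/Δ livers, 2.86 and 4.11 CPM in compound mutant livers and 1.36, 1.81, 1.66 and 2.05 CPM in WT livers, with Ercc1-/Δ library 1 standing out as highest. It rose in Ercc1-/Δ livers (1.67 ± 0.34, adjusted p = 0.0107, but 0.96 and 0.110 without that library) and did not pass in compound mutant livers (1.01 ± 0.35, adjusted p = 0.0765). E2f7, whose product represses E2F targets, had 0.99 and 0.815 CPM in Ercc1-/Δ livers, 0.625 and 0.763 CPM in compound mutant livers and 1.26, 2.32, 1.09 and 1.08 CPM in WT livers, every mutant liver below every WT liver and WT library 2 well above the rest. Neither of its changes passed (-0.66 ± 0.39, adjusted p = 0.264 and -1.04 ± 0.41, adjusted p = 0.112). E2f8, the gene of its partner repressor, overlapped between the groups, with 5.61 and 7.03 CPM in Ercc1-/Δ livers, 3.29 and 2.58 CPM in compound mutant livers and 3.24, 2.47, 5.33 and 7.87 CPM in WT livers. Its changes were 0.41 ± 0.40 (adjusted p = 0.505) in Ercc1-/Δ and -0.69 ± 0.43 (adjusted p = 0.294) in compound mutant livers. Mybl2, which encodes B-Myb, had 0.696 and 0.747 CPM in Ercc1-/Δ livers, 1.12 and 0.508 CPM in compound mutant livers and 0.484, 1.16, 0.437 and 1 CPM in WT livers, with no separation of the groups and changes of -0.09 ± 0.51 (adjusted p = 0.913) and 0.10 ± 0.50 (adjusted p = 0.915), a sign that turned for Ercc1-/Δ without scaling factors (0.17).

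Of 11 genes of replication licensing and of the fork, 4 rose in Ercc1-/Δ livers (Mcm2, Mcm3, Mcm4 and Mcm6, all helicase subunits) and 1 in compound mutant livers (Mcm6), 36.4% and 9.09% beside 11.3% and 10.6% of all genes. Mcm2 had 14.3 and 9.64 CPM in Ercc1-/Δ livers, 7.49 and 13.6 CPM in compound mutant livers and 3.44, 2.72, 2.58 and 7.3 CPM in WT livers. Mcm3 had 15.9 and 8.32 CPM in Ercc1-/Δ livers, 6.94 and 13 CPM in compound mutant livers and 4.7, 5.34, 4.89 and 6.56 CPM in WT livers. In both genes 1 library of each mutant group, Ercc1-/Δ library 1 and compound mutant library 2, was well above its partner, and WT library 4 was the highest WT liver. Mcm4 had 14.3 and 7.6 CPM in Ercc1-/Δ livers, 6.77 and 12.1 CPM in compound mutant livers and 2.57, 2.92, 4.41 and 5.75 CPM in WT livers. Mcm6 had 19.2 and 10.2 CPM in Ercc1-/Δ livers, 11.6 and 17.4 CPM in compound mutant livers and 4.31, 4.18, 3.41 and 9.77 CPM in WT livers. The same 2 mutant libraries led these genes, and WT library 4 reached 9.77 CPM of Mcm6, just under the lowest mutant liver. The rises in Ercc1-/Δ livers were 1.56 ± 0.42 (adjusted p = 0.0325) for Mcm2, 1.17 ± 0.31 (adjusted p = 0.0298) for Mcm3, 1.47 ± 0.38 (adjusted p = 0.0269) for Mcm4 and 1.43 ± 0.42 (adjusted p = 0.0425) for Mcm6. In compound mutant livers the changes were 1.38 ± 0.43 (adjusted p = 0.055) for Mcm2, 0.88 ± 0.31 (adjusted p = 0.0839) for Mcm3, 1.26 ± 0.38 (adjusted p = 0.053) for Mcm4 and 1.41 ± 0.42 (adjusted p = 0.0496) for Mcm6, of which Mcm6 alone passed.

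These helicase calls did not hold in every fit with a library left out. Without Ercc1-/Δ library 1 the Ercc1-/Δ change of Mcm2 was 1.25 (adjusted p = 0.201), of Mcm3 0.63 (adjusted p = 0.279), of Mcm4 0.95 (adjusted p = 0.234) and of Mcm6 0.91 (adjusted p = 0.307). The calls of Mcm2, Mcm3 and Mcm4 also ended without WT library 1 (adjusted p = 0.0645, 0.0609 and 0.0507) or WT library 2 (0.0633, 0.0563 and 0.0559), and that of Mcm2 without Ercc1-/Δ library 2 (0.0672). Mcm6 was called in either comparison only when all libraries or all but WT library 4 were used. The summed level of Mcm2 to Mcm7 was 95.6 and 57.8 CPM in Ercc1-/Δ livers, 50.8 and 80.7 CPM in compound mutant livers, and 30.5, 28.1, 30.1 and 53.5 CPM in WT livers, so WT library 4 lay above compound mutant library 1. The remaining 6 genes (Mcm5, Mcm7, Cdc6, Cdc45, Cdt1 and Pcna) had log2 fold changes of 0.28 to 1.55 in Ercc1-/Δ and 0.04 to 1.76 in compound mutant livers, and none passed. Gmnn, which encodes geminin, the inhibitor of the licensing factor CDT1, had 7.26 and 7.64 CPM in Ercc1-/Δ livers, 8.02 and 9.24 CPM in compound mutant livers and 5.67, 9.42, 8.86 and 7.6 CPM in WT livers. Its groups overlapped, with changes of -0.08 ± 0.21 (adjusted p = 0.809) and 0.13 ± 0.21 (adjusted p = 0.705), and the sign in Ercc1-/Δ livers turned without scaling factors (0.18).

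Of the 4 genes of nucleotide supply 1, Tk1, fell in Ercc1-/Δ livers, and none passed in compound mutant livers. Over all genes 9.5% and 7.4% were called lower in these comparisons. Tk1 (ENSMUSG00000025574, chr11:117815526-117826092, minus strand), which encodes the thymidine kinase of S phase, had 22.8 and 15.3 CPM in Ercc1-/Δ livers, 21.3 and 34.1 CPM in compound mutant livers and 52.6, 157, 46.4 and 49.6 CPM in WT livers. Every mutant liver was below every WT liver, and WT library 2 held more than the other WT libraries together. Tk1 fell in Ercc1-/Δ livers (-2.00 ± 0.56, adjusted p = 0.0358), and did not pass in compound mutant livers (-1.47 ± 0.54, adjusted p = 0.0935). The call in Ercc1-/Δ remained without any 1 WT library, WT library 2 included, and ended without Ercc1-/Δ library 1 (-2.32, adjusted p = 0.125), Ercc1-/Δ library 2 (-1.74, adjusted p = 0.185) or either compound mutant library (-2.00, adjusted p = 0.0528 each). Exons of Tk1 overlap those of Afmid on the other strand by 83 bases. Rrm1, the large subunit gene of ribonucleotide reductase, had 12.9 and 13 CPM in Ercc1-/Δ livers, 12.4 and 14.1 CPM in compound mutant livers and 10.2, 9.12, 12.1 and 11 CPM in WT livers, each mutant liver slightly above each WT liver. Its small subunit gene Rrm2 had 9.42 and 5.46 CPM in Ercc1-/Δ livers, 4.24 and 4.36 CPM in compound mutant livers and 6.78, 5.54, 4.1 and 4.79 CPM in WT livers, and Ercc1-/Δ library 1 was the highest of all. The thymidylate synthase gene Tyms had 11.7 and 7.37 CPM in Ercc1-/Δ livers, 8.41 and 8.56 CPM in compound mutant livers and 8.62, 6.9, 7.77 and 7.57 CPM in WT livers. Rrm2 and Tyms overlapped between mutant and WT livers, and no change of these 3 genes passed, with 0.29 to 0.49 in Ercc1-/Δ and -0.30 to 0.32 in compound mutant livers.

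Of 5 tested genes of G2 and of CDK1 control, Foxm1, Ccna2, Cdk1 and Ccnb1 rose in Ercc1-/Δ livers and Ccnb2 did not pass, while Foxm1 alone rose in compound mutant livers. Over all genes 11.3% were called higher in Ercc1-/Δ and 10.6% in compound mutant livers. Foxm1, which encodes the transcription factor of the mitotic gene programme, had 2.93 and 3.09 CPM in Ercc1-/Δ livers, 2.1 and 2.33 CPM in compound mutant livers and 0.726, 0.705, 0.349 and 1.35 CPM in WT livers. The mutant livers lay above all WT livers, of which library 4 was highest, and Foxm1 rose by 1.92 ± 0.40 (adjusted p = 0.0126) in Ercc1-/Δ and by 1.48 ± 0.41 (adjusted p = 0.0397) in compound mutant livers. Ccna2, the gene of cyclin A2, had 6.56 and 3.09 CPM in Ercc1-/Δ livers, 3.48 and 2.75 CPM in compound mutant livers and 0.484, 0.504, 0.262 and 2.35 CPM in WT livers. WT library 4 stood apart from the other WT livers and close to compound mutant library 2, and the change was 2.37 ± 0.68 (adjusted p = 0.0404) in Ercc1-/Δ and 1.75 ± 0.70 (adjusted p = 0.116) in compound mutant livers. Cdk1, the kinase gene that drives entry into mitosis, had 7.88 and 7.98 CPM in Ercc1-/Δ livers, 4.7 and 4.87 CPM in compound mutant livers and 1.21, 2.32, 0.699 and 3.51 CPM in WT livers. Here the libraries of the 3 genotypes did not overlap. Cdk1 rose in Ercc1-/Δ livers (2.02 ± 0.47, adjusted p = 0.018) while the compound mutant change against WT did not pass (1.29 ± 0.48, adjusted p = 0.0944). Between compound mutant and Ercc1-/Δ livers Cdk1 was not called (-0.73 ± 0.54, adjusted p = 0.831 by edgeR). Ccnb1, whose product activates CDK1, had 2.53 and 3.46 CPM in Ercc1-/Δ livers, 2.04 and 1.1 CPM in compound mutant livers and 0.145, 0.302, 0.0437 and 1.31 CPM in WT livers. WT library 4 exceeded compound mutant library 2, and the change was 2.66 ± 0.79 (adjusted p = 0.0441) in Ercc1-/Δ and 1.74 ± 0.82 (adjusted p = 0.172) in compound mutant livers. Ccnb2, the other cyclin B gene, had 2.49 and 4.38 CPM in Ercc1-/Δ livers, 2.56 and 2.16 CPM in compound mutant livers and 0.484, 0.957, 0.349 and 3.13 CPM in WT livers, with WT library 4 inside the mutant range and no call. Without Ercc1-/Δ library 1 or 2 the Ercc1-/Δ calls of Foxm1 (1.96 and 1.88, adjusted p = 0.0648 and 0.0608), Cdk1 (2.03 and 2.01, adjusted p = 0.0879 and 0.0750), Ccnb1 (2.86 and 2.41, adjusted p = 0.121 and 0.169) and Ccna2 (1.73 and 2.82, adjusted p = 0.254 and 0.0647) ended, with fold changes of Foxm1 and Cdk1 almost as before, and those of Ccnb1 and Ccna2 also ended without WT library 1 or 2 or either compound mutant library (adjusted p = 0.0666 to 0.0851). The compound mutant call of Foxm1 ended without any library but WT 3 and WT 4 (1.40 to 1.55, adjusted p = 0.0602 to 0.196).

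All 3 genes of mitotic kinases rose in Ercc1-/Δ livers (100%, beside 11.3% of all genes). In compound mutant livers 1, Plk1, passed (33.3%, beside 10.6% of all genes). For all 3, every compound mutant library stood above every WT library (24.8% of all genes). Plk1 (ENSMUSG00000030867, chr7:122159439-122169873, plus strand), which encodes the Polo-like kinase of spindle assembly and mitotic exit, had 3.56 and 3.12 CPM in Ercc1-/Δ livers, 1.81 and 1.1 CPM in compound mutant livers and 0.339, 0.201, 0.175 and 0.656 CPM in WT livers. Ercc1-/Δ livers were highest, compound mutant livers next, and WT library 4 was the highest of the WT livers. Plk1 rose by 3.23 ± 0.45 (adjusted p = 0.00246) in Ercc1-/Δ livers, also with any library left out (3.02 to 3.79), and by 2.04 ± 0.47 (adjusted p = 0.0204) in compound mutant livers, which ended without compound mutant library 1 (1.64, adjusted p = 0.190) or 2 (2.35, adjusted p = 0.0619). Aurka, a kinase gene of the centrosome, had 4.73 and 3.02 CPM in Ercc1-/Δ livers, 2.63 and 1.82 CPM in compound mutant livers and 0.533, 0.655, 0.349 and 1.78 CPM in WT livers. WT library 4 nearly reached compound mutant library 2, and Aurka rose in Ercc1-/Δ livers (2.19 ± 0.53, adjusted p = 0.0211, but 1.83 and 0.141 without Ercc1-/Δ library 1). Aurkb, the kinase gene of the chromosomal passenger complex, had 2.09 and 2.07 CPM in Ercc1-/Δ livers, 1.91 and 1.86 CPM in compound mutant livers and 0.145, 0.453, 0 and 0.811 CPM in WT livers. The 4 mutant livers were nearly equal and all above WT, with a change of 2.51 ± 0.73 (adjusted p = 0.0424) in Ercc1-/Δ, which ended without any library but WT 3 and WT 4 (adjusted p = 0.0664 to 0.149), and 2.37 ± 0.74 (adjusted p = 0.0581) in compound mutant livers.

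Pbk and Melk, which encode kinases found in dividing cells, had the 2 largest log2 fold changes. Pbk had 2.71 and 1.15 CPM in Ercc1-/Δ livers, 0.986 and 1.06 CPM in compound mutant livers and 0, 0.151, 0.0873 and 0.193 CPM in WT livers, with Ercc1-/Δ library 1 above all others. Melk had 1.03 and 0.95 CPM in Ercc1-/Δ livers, 0.46 and 0.551 CPM in compound mutant livers and 0, 0.101, 0 and 0.116 CPM in WT livers. Every mutant liver was above every WT liver in both genes, and 1 WT library held no Pbk count and 2 held no Melk count. Pbk rose by 4.06 ± 0.62 (adjusted p = 0.00356) and Melk by 4.03 ± 0.69 (adjusted p = 0.00555) in Ercc1-/Δ livers, with 3.32 to 4.55 and 3.66 to 4.76 when libraries were left out in turn, all called. In compound mutant livers Pbk rose by 3.15 ± 0.65 (adjusted p = 0.0136) and Melk by 3.07 ± 0.74 (adjusted p = 0.0248), and both calls ended without either compound mutant library (adjusted p = 0.0838 and 0.0841 for Pbk, 0.124 and 0.145 for Melk). Plk4, the kinase gene of centriole duplication, had 1.76 and 1.43 CPM in Ercc1-/Δ livers, 1.41 and 1.02 CPM in compound mutant livers and 0.823, 0.403, 0.699 and 1.35 CPM in WT livers. WT library 4 lay between the compound mutant livers, and neither change passed (0.94 ± 0.42, adjusted p = 0.148 and 0.55 ± 0.43, adjusted p = 0.403).

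All 6 genes of the spindle checkpoint and of the anaphase-promoting complex (APC/C) rose in Ercc1-/Δ livers, by 1.26 to 3.30 (100%, beside 11.3% of all genes). In compound mutant livers 2 of them, Mad2l1 and Ube2c, passed (33.3%, beside 10.6% of all genes). The other genes were higher there as well. For all 6, every compound mutant library stood above every WT library (24.8% of all genes), with a median log2 fold change of 2.05. Mad2l1, which encodes the checkpoint protein MAD2, had 6.63 and 6.31 CPM in Ercc1-/Δ livers, 5.62 and 5.59 CPM in compound mutant livers and 2.32, 2.52, 2.18 and 3.74 CPM in WT livers. WT library 4 was the highest WT liver and still below every mutant liver, and Mad2l1 rose by 1.26 ± 0.23 (adjusted p = 0.00709) in Ercc1-/Δ and by 1.05 ± 0.23 (adjusted p = 0.0172) in compound mutant livers. Ube2c, whose promoter is printed above, had 7.7 and 5.8 CPM in Ercc1-/Δ livers, 3.06 and 2.92 CPM in compound mutant livers and 0.194, 0.655, 0.218 and 1.58 CPM in WT livers. The compound mutant livers were intermediate, and Ube2c rose by 3.30 ± 0.60 (adjusted p = 0.00705) in Ercc1-/Δ and by 2.13 ± 0.62 (adjusted p = 0.0459) in compound mutant livers. Cdc20, the gene of an APC/C activator, had 8.69 and 6.69 CPM in Ercc1-/Δ livers, 3.98 and 3.13 CPM in compound mutant livers and 0.533, 0.353, 0.349 and 2.93 CPM in WT livers. WT library 4 was far above the other WT livers and just below compound mutant library 2, and Cdc20 rose in Ercc1-/Δ livers (2.83 ± 0.70, adjusted p = 0.0231). Ttk, the gene of the checkpoint kinase MPS1, had 1.14 and 1.09 CPM in Ercc1-/Δ livers, 0.855 and 0.678 CPM in compound mutant livers and 0.145, 0, 0 and 0.309 CPM in WT livers, with no count in WT libraries 2 and 3, and rose in Ercc1-/Δ livers (3.15 ± 0.78, adjusted p = 0.0236). The checkpoint genes Bub1 and Bub1b, named to complete the 6, rose by 2.63 and 2.26 in Ercc1-/Δ livers. Without Ercc1-/Δ library 1 none of the 6 calls remained (1.22 and adjusted p = 0.0530 for Mad2l1, 3.08 and 0.0536 for Ube2c, 2.63 and 0.118 for Cdc20, 3.12 and 0.105 for Ttk). The compound mutant calls ended without either compound mutant library (adjusted p = 0.112 to 0.120 for Mad2l1 and 0.177 to 0.200 for Ube2c), and that of Ube2c was present only with all libraries or without WT library 4.

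Among 7 kinesin and spindle genes, 5 rose in Ercc1-/Δ livers (Kif11, Kif20a, Kif4, Prc1 and Nusap1), 71.4% beside 11.3% of all genes. In compound mutant livers 2 passed (Kif4 and Nusap1), 28.6% beside 10.6% of all genes. For all 7, every compound mutant library stood above every WT library (24.8% of all genes). Kif11, the motor gene that separates spindle poles, had 3.15 and 3.5 CPM in Ercc1-/Δ livers, 1.74 and 1.53 CPM in compound mutant livers and 0.92, 0.755, 0.917 and 1.51 CPM in WT livers. Compound mutant library 2 barely exceeded WT library 4, while both Ercc1-/Δ livers were well above, and the change was 1.68 ± 0.29 (adjusted p = 0.006) in Ercc1-/Δ, called with any library left out (1.56 to 1.94), and 0.66 ± 0.31 (adjusted p = 0.169) in compound mutant livers. Kif4, a chromosome-bound motor gene, had 1.43 and 1.32 CPM in Ercc1-/Δ livers, 1.12 and 1.27 CPM in compound mutant livers and 0.0969, 0.201, 0.218 and 0.347 CPM in WT livers. The mutant livers were close to each other and far above WT. Kif4 rose by 2.61 ± 0.40 (adjusted p = 0.0036) in Ercc1-/Δ livers (called in each of the 8 fits without 1 library) and by 2.41 ± 0.41 (adjusted p = 0.00624) in compound mutant livers (ended without compound mutant library 1 or 2, adjusted p = 0.0531 and 0.0595). Nusap1, which encodes a spindle-bundling protein, had 3.15 and 2.58 CPM in Ercc1-/Δ livers, 2.2 and 1.1 CPM in compound mutant livers and 0.242, 0.0504, 0.218 and 0.772 CPM in WT livers. Compound mutant library 2 was the lowest mutant liver, and Nusap1 rose by 3.07 ± 0.62 (adjusted p = 0.0105) and 2.29 ± 0.64 (adjusted p = 0.0395). Kif20a, a motor gene of late mitosis, had 6.34 and 6.35 CPM in Ercc1-/Δ livers, 3.62 and 2.75 CPM in compound mutant livers and 1.4, 0.655, 0.742 and 2.59 CPM in WT livers, and WT library 4 came within reach of compound mutant library 2. It rose in Ercc1-/Δ livers (2.21 ± 0.45, adjusted p = 0.0113). Without Ercc1-/Δ library 1 the calls of Kif20a (2.21, adjusted p = 0.0644) and Nusap1 (2.92, adjusted p = 0.0670) ended, and that of Kif20a also without Ercc1-/Δ library 2 (2.21, adjusted p = 0.0517). The compound mutant call of Nusap1 ended without any library but WT 2 and WT 4 (1.70 to 2.70, adjusted p = 0.0576 to 0.300).

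Of the centromere genes Cenpa, Cenpe and Cenpf and the passenger gene Birc5, none was called in either comparison in the main fit. By edgeR this was 0 of 4, beside 11.3% and 10.6% of all genes called higher. At unadjusted p under 0.05, 3 and 1 were higher, beside 18.2% and 18.5% of all genes. Other methods called some of them in Ercc1-/Δ livers. Adjusted p with DESeq2 and limma-voom was 0.0474 and 0.0497 for Birc5, 0.0187 and 0.0508 for Cenpf, and 0.339 and 0.0209 for Cenpe. Cenpa passed with neither. Aurkb, of the same passenger complex, is described among the kinases and passed narrowly in Ercc1-/Δ livers (edgeR, adjusted p = 0.0424). Cenpa, which encodes the histone variant of centromeres, had 8.39 and 10.8 CPM in Ercc1-/Δ livers, 9.96 and 8.51 CPM in compound mutant livers and 7.41, 7.5, 9.96 and 8.34 CPM in WT livers. The groups overlapped fully, with changes of 0.21 ± 0.18 (adjusted p = 0.437) and 0.15 ± 0.18 (adjusted p = 0.59). Cenpe, a kinetochore motor gene, had 2.02 and 2.07 CPM in Ercc1-/Δ livers, 1.25 and 0.763 CPM in compound mutant livers and 0, 0, 0.175 and 1.2 CPM in WT livers. WT library 4 alone among the WT livers held more than a trace of Cenpe, and it stood level with the compound mutant livers. Without that library Cenpe was called in both comparisons with WT (4.92 in Ercc1-/Δ and 3.92 in compound mutant livers), on a WT group in which 1 library had any count. Cenpf, a kinetochore gene, had 1.14 and 2.38 CPM in Ercc1-/Δ livers, 1.87 and 0.551 CPM in compound mutant livers and 0.0484, 0.353, 0.218 and 0.772 CPM in WT livers. Birc5, the survivin gene, had 3.81 and 3.94 CPM in Ercc1-/Δ livers, 3.29 and 3.39 CPM in compound mutant livers and 1.65, 2.97, 1.05 and 2.39 CPM in WT livers. Mutant livers lay just above the highest WT liver for Birc5, while Cenpf overlapped in compound mutant livers. The changes in Ercc1-/Δ and compound mutant livers were 2.28 ± 0.74 (adjusted p = 0.0586) and 1.76 ± 0.76 (adjusted p = 0.139) for Cenpf, and 0.94 ± 0.35 (adjusted p = 0.0871) and 0.73 ± 0.35 (adjusted p = 0.183) for Birc5.

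Of 3 genes of cytokinesis, the step that fails when hepatocytes become polyploid, 2 rose in Ercc1-/Δ livers (Anln and Ect2). That was 66.7%, beside 11.3% of all genes. In compound mutant livers none passed, and for all 3 every library stood above every WT library (24.8% of all genes). Anln, which encodes the contractile ring protein anillin, had 3.15 and 2.72 CPM in Ercc1-/Δ livers, 2.17 and 1.31 CPM in compound mutant livers and 0.436, 0.907, 0.48 and 1 CPM in WT livers. It rose by 2.04 ± 0.38 (adjusted p = 0.0075) in Ercc1-/Δ livers, which ended without Ercc1-/Δ library 1 (1.93, adjusted p = 0.0572), and the compound mutant change was 1.30 ± 0.39 (adjusted p = 0.0509). Ect2, the gene of the exchange factor that activates RhoA at the ring, had 3.89 and 3.26 CPM in Ercc1-/Δ livers, 2.86 and 3.22 CPM in compound mutant livers and 1.4, 1.61, 0.699 and 2.05 CPM in WT livers. Mutant livers stood above WT livers with a clear gap, and Ect2 rose in Ercc1-/Δ livers (1.30 ± 0.35, adjusted p = 0.0317), a call that ended without any library but WT 3 and WT 4 (1.17 to 1.42, adjusted p = 0.0503 to 0.160). Racgap1, the gene of the centralspindlin GTPase-activating protein, had 3.48 and 3.63 CPM in Ercc1-/Δ livers, 2.14 and 2.25 CPM in compound mutant livers and 0.242, 0.403, 0.218 and 2.01 CPM in WT livers. WT library 4 was far above the other WT livers and almost level with the compound mutant livers, and neither change passed (2.25 ± 0.70, adjusted p = 0.0521 and 1.55 ± 0.72, adjusted p = 0.167).

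Chromatin genes that mark cycling cells followed the same order. Top2a, the topoisomerase gene of chromosome condensation, had 9.24 and 7.98 CPM in Ercc1-/Δ livers, 4.7 and 5.93 CPM in compound mutant livers and 1.16, 1.51, 0.218 and 3.47 CPM in WT livers. It rose in Ercc1-/Δ livers (2.41 ± 0.62, adjusted p = 0.0278), a call that ended without any library but WT 3 and WT 4 (2.30 to 2.51, adjusted p = 0.0507 to 0.129), and the compound mutant change was 1.71 ± 0.64 (adjusted p = 0.0958). Mki67, the gene of the proliferation marker Ki-67, had 8.54 and 9.54 CPM in Ercc1-/Δ livers, 5.26 and 5.46 CPM in compound mutant livers and 2.37, 2.77, 0.218 and 4.94 CPM in WT livers. WT libraries ran from near 0 in library 3 to just under the mutant livers in library 4, and the changes were 1.80 ± 0.66 (adjusted p = 0.086) and 1.05 ± 0.68 (adjusted p = 0.315).

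**Figure D3:**
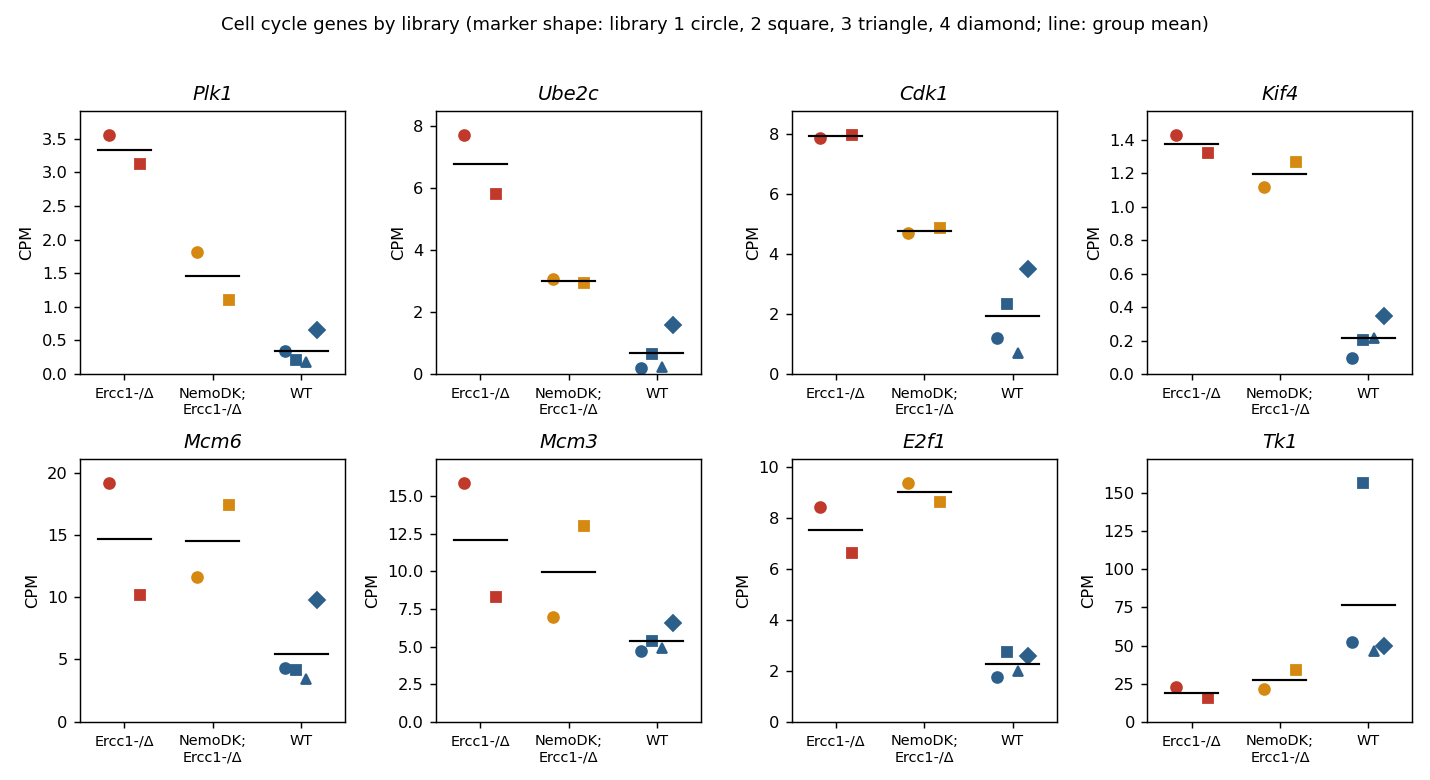
CPM (vertical axes, from 0) of 8 members in each library, by genotype, with a line at the group mean and a marker shape for each library number. WT library 4 (diamond) is the highest WT liver for 6 of these genes, the Mcm3 and Mcm6 values of the mutant libraries of one genotype differ widely, and WT library 2 (square) holds 157 CPM of Tk1.

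S-phase members were compared with mitotic members, as the choice of genes implies. Mitotic members showed larger median log2 fold changes against WT than S-phase members in both mutant genotypes. They started from lower WT levels, with sums of 20.5 to 48.8 CPM in WT livers against 138 to 246 CPM for S-phase members. Their median SE in Ercc1-/Δ against WT was also larger (0.60 against 0.35). In Ercc1-/Δ against WT, 4 of 15 S-phase members rose (26.7%) and 18 of 26 tested mitotic members did (69.2%), beside 11.3% of all genes, with median log2 fold changes of 1.06 and 2.27. In compound mutant against WT livers 1 of 15 S-phase (6.67%) and 5 of 26 mitotic members (19.2%) rose, beside 10.6% of all genes, with medians of 0.83 and 1.64. The difference of the medians, S-phase minus mitotic, was -1.21 in Ercc1-/Δ and -0.81 in compound mutant livers. The classes were picked with results known, so no p is given. Leaving out libraries in turn gave -1.78 to -0.97 in Ercc1-/Δ and -1.67 to -0.13 in compound mutant livers, the end nearest 0 being without WT library 3 in Ercc1-/Δ and without compound mutant library 1 in compound mutant livers. With the G1/S regulators other than Ccnd1 added to the S-phase class (22 genes) and all other members to the mitotic class (33 tested), the medians were 1.11 and 2.28 in Ercc1-/Δ and 0.86 and 1.71 in compound mutant livers.

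S-phase and mitotic members ordered the mice differently in the compound mutant pair. The mean deviation from the WT mean, on the log2(CPM + 0.5) scale, was 0.91 and 0.34 in Ercc1-/Δ livers 1 and 2 for S-phase members, but 1.65 and 1.66 for mitotic members. In compound mutant livers 1 and 2 it was 0.29 and 0.76 for S-phase members and 1.24 and 1.0 for mitotic members. Compound mutant library 2 was the higher of its pair for 15 of 15 S-phase members and library 1 for 19 of 26 mitotic members. Ercc1-/Δ library 1 was the higher of its pair for 13 of 15 S-phase and 14 of 26 mitotic members. In WT livers 1 to 4 the deviations were -0.14, -0.06, -0.12 and 0.33 for S-phase members and -0.26, -0.10, -0.38 and 0.74 for mitotic members. WT library 4 was the highest WT liver for 24 of 26 mitotic members and for 7 of 15 S-phase members, and for 42 of all 56 tested members. Within each library, S-phase minus mitotic was -0.74 and -1.32 in Ercc1-/Δ livers, -0.95 and -0.24 in compound mutant livers, and 0.12, 0.03, 0.26 and -0.41 in WT livers. The value of WT library 4 thus lay beyond that of compound mutant library 2.

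**Figure D4:**
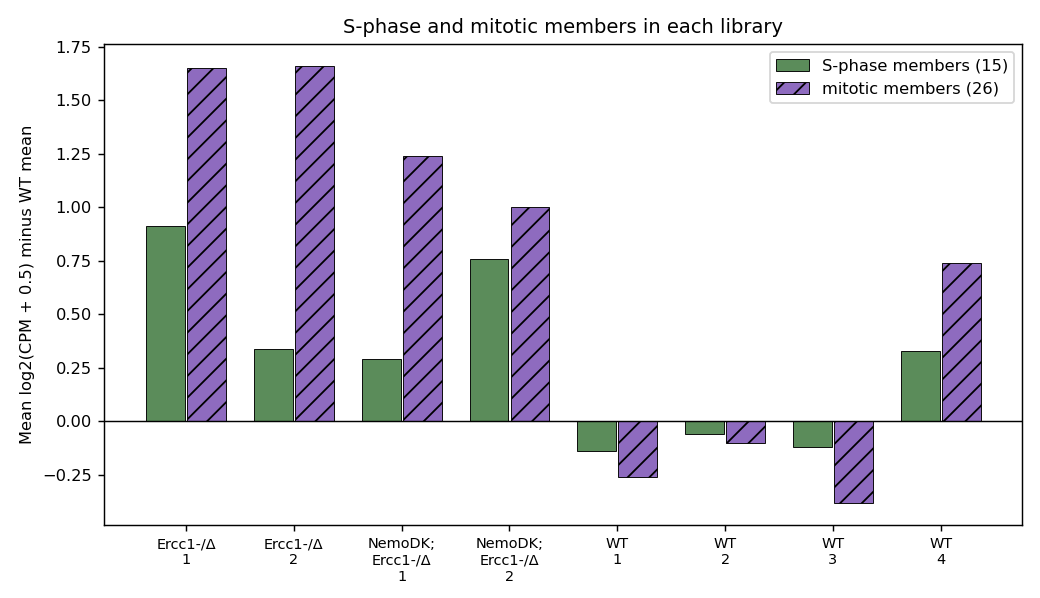
Mean deviation from the WT mean on the log2(CPM + 0.5) scale (vertical axis) of the 15 S-phase and 26 mitotic members in each of the 8 libraries (horizontal axis). Mitotic bars reach 1.65 and 1.66 in Ercc1-/Δ livers, and WT library 4 is the only WT library with both bars above 0, at 0.33 and 0.74.

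How many members were called varied with the mice used, and so did the number of genes called in all. In Ercc1-/Δ against WT, 30 rose and 1 fell with all libraries, and 40 and 1 without WT library 4, where the median was 1.99. Without WT library 3, whose RNA did not match its label, 31 rose and 1 fell. Without WT library 1 or 2, 19 rose and 1 fell. Without either compound mutant library fewer were called than with all libraries, and the median was 1.68 in both fits. Those libraries enter this comparison through the shared spread, the filter on low counts (16200 and 16220 genes tested, against 15598) and the scaling factors. Without Ercc1-/Δ library 1 the 6 genes E2f1, Plk1, Pbk, Melk, Kif11 and Kif4 were called, with a median of 1.55, and without Ercc1-/Δ library 2, 14 were called. The genes called higher over the whole table numbered 774 and 1070 in these fits, against 1761 with all libraries, and 1433 without WT library 4, where more members were called. In compound mutant against WT livers 33 rose without WT library 4 and 11 without WT library 3, against 7 without WT library 1, 7 higher and 1 lower without WT library 2, 8 without either Ercc1-/Δ library, and 2 and 1 without compound mutant library 1 and 2. Of all genes, 380 and 451 were called higher without these libraries and 1271 without WT library 4, against 1646 with all. With age as a covariate, 0 of 56 members were called in Ercc1-/Δ against WT (edgeR, with 1 higher and 1 lower at unadjusted p under 0.05) and the median was 0.66. That fit called few genes at the adjusted threshold, 24 higher and 17 lower of 15598, against 1761 and 1482 without the covariate. At unadjusted p under 0.05 (edgeR) it held 2408 of all genes in either direction, against 5550 without the covariate. That is a larger share of all genes than of the members. Compound mutant and WT mice were of similar age, and there 8 rose and 1 fell with the covariate, with a median of 1.24. E2f1 in compound mutant livers was the 1 call against WT, of those examined singly, that held with age as a covariate and with any library left out.

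**Figure D5:**
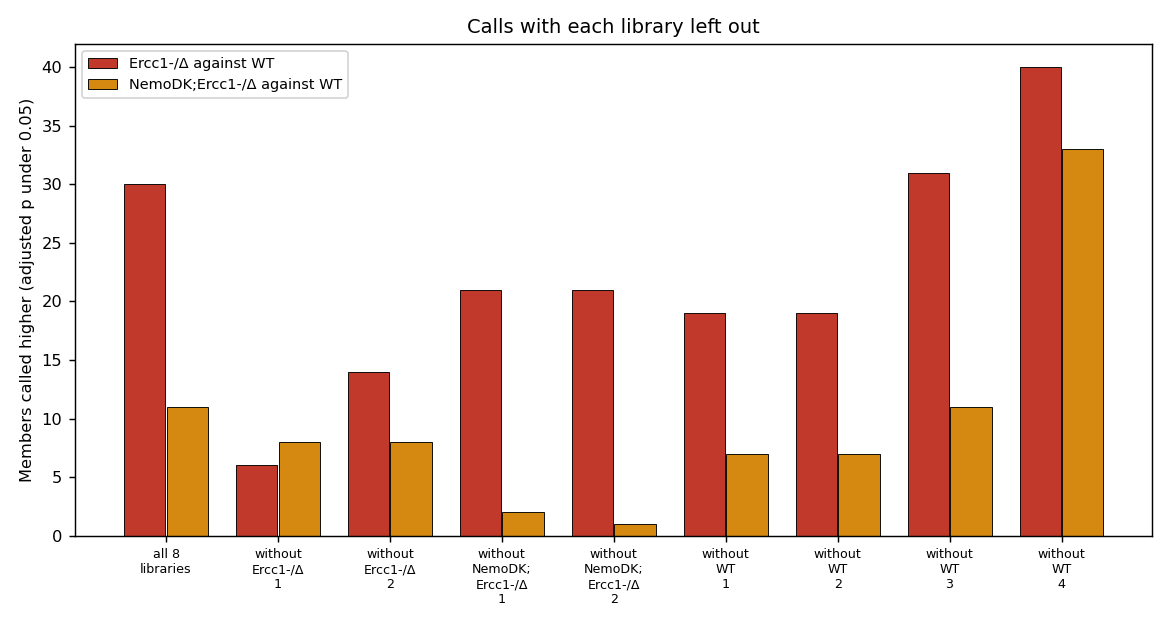
Number of members called higher against WT (vertical axis, adjusted p under 0.05) with all 8 libraries and with each library left out (horizontal axis), for Ercc1-/Δ and NemoDK;Ercc1-/Δ livers. Without WT library 4 the counts are 40 and 33, and the lowest counts are 6 (without Ercc1-/Δ library 1) and 1 (without NemoDK;Ercc1-/Δ library 2).

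Compound mutant livers were also set against Ercc1-/Δ livers, the comparison that varies the Nemo allele, although the Ercc1-/Δ mice were older. Here 0 of 56 members were called by edgeR, where 0% of all genes were called in either direction, and 0 by DESeq2 or limma-voom. The lowest adjusted p was 0.648. At unadjusted p under 0.05, 0 were higher and 4 lower (Kif11, Rrm2, Plk1 and E2f8), where 3.29% of all genes were higher and 3.52% lower. The member median was -0.41, beside 0.02 over all genes. Of the 56 members 47 had a value below 0, beside 46.8% of all genes. The members were measured in the same mice, so these counts are not counts of replicates. All 26 tested mitotic members were below 0, with a median of -0.65, and in 21 of them every compound mutant library lay below every Ercc1-/Δ library. S-phase members had a median of -0.15, with 11 of 15 below 0. Over all members 31 lay wholly below and 2, E2f1 and Gmnn, wholly above, where 19.7% and 23.1% of all genes did so. The sizes were -1.02 ± 0.34 (adjusted p = 0.648) for Kif11, -1.19 ± 0.49 (adjusted p = 0.718) for Plk1, -1.11 ± 0.80 (adjusted p = 0.824) for Cdc20, -1.17 ± 0.67 (adjusted p = 0.779) for Ube2c and 0.26 ± 0.24 (adjusted p = 0.875) for E2f1. The lowest estimate was that of Prc1 (-1.24). With age as a covariate the member median was 0.59 and 13 of 56 were below 0, so the direction of this comparison turned with that setting.

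Further lists covered other genes of the pathway. Of 44 further mitosis genes, 25 rose and 0 fell in Ercc1-/Δ livers and 11 rose and 0 fell in compound mutant livers. The shares that rose were 56.8% and 25%, with medians of 2.1 and 1.34. Over all genes 11.3% and 10.6% were called higher and 9.5% and 7.4% lower. Gtse1, which encodes a microtubule-bound protein of G2 and mitosis, had 5.06 and 7.57 CPM in Ercc1-/Δ livers, 5.23 and 6.02 CPM in compound mutant livers and 0.484, 0.907, 0.917 and 1.08 CPM in WT livers, and rose by 2.88 ± 0.29 (adjusted p = 7.07e-04) and 2.71 ± 0.29 (adjusted p = 9.97e-04). The mitotic kinesin genes Kifc1 and Kif22 rose by 3.34 ± 0.48 and 2.69 ± 0.39 in Ercc1-/Δ and by 2.59 ± 0.49 and 2.09 ± 0.39 in compound mutant livers. Of 39 further S-phase genes, 15 rose and 2 fell in Ercc1-/Δ livers and 10 rose and 0 fell in compound mutant livers. The shares that rose were 38.5% and 25.6%, beside 11.3% and 10.6% of all genes, with medians of 0.50 and 0.52. Gins2, of the replicative helicase complex, rose by 1.92 ± 0.28 and 1.97 ± 0.28, Dbf4, the activator of the CDC7 kinase, by 1.24 ± 0.20 and 0.84 ± 0.21, and Rfc3, of the clamp loader, by 0.87 ± 0.15 and 0.79 ± 0.15 in Ercc1-/Δ and compound mutant livers.

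Among 12 further cyclin, CDK and entry genes of G1, 2 rose in Ercc1-/Δ livers (16.7%, beside 11.3% of all genes: the p53 target Ccng1 by 1.16 ± 0.13 and Myc by 2.57 ± 0.35) and 3 rose in compound mutant livers (25%, beside 10.6% of all genes: Ccng1 by 1.23 ± 0.13, Myc by 2.49 ± 0.35 and Ccnd3 by 0.58 ± 0.12). Of 13 pocket protein, E2F and DREAM genes, 2 rose and 3 fell in Ercc1-/Δ livers and 2 rose in compound mutant livers, so that the share that rose (15.4% in each) was near that of all genes. Rbl1, the gene of the pocket protein p107, rose by 1.41 ± 0.25 and 1.05 ± 0.26, E2f3 rose by 0.94 ± 0.21 and 0.86 ± 0.21, and Tfdp2, an E2F partner gene, fell by 0.91 ± 0.22 in Ercc1-/Δ livers and had -0.35 ± 0.22 in compound mutant livers. Of 6 tested CDK inhibitor genes 1 rose in each genotype (16.7%). It was Cdkn1a, the p21 gene, with 104 and 66.2 CPM in Ercc1-/Δ livers, 45.4 and 40.5 CPM in compound mutant livers and 9.49, 1.01, 1.31 and 1.97 CPM in WT livers. The rise was 4.64 ± 0.71 (adjusted p = 0.00362) in Ercc1-/Δ and 3.65 ± 0.70 (adjusted p = 0.0104) in compound mutant livers, so the inhibitor gene and the genes of cycling were both higher in the same livers. Cdkn2c and Cdkn1b, of the INK4 and CIP/KIP inhibitors, had changes of 0.46 ± 0.20 and -0.42 ± 0.18 in Ercc1-/Δ livers and of 0.53 ± 0.20 and -0.33 ± 0.18 in compound mutant livers, and did not pass.

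Summed markers of several other cell types were also higher in mutant livers on average. For the counts below, 11.3% of all genes were called higher in Ercc1-/Δ and 10.6% in compound mutant livers. In lists this short, 1 called gene says little beside those shares. Summed macrophage markers (8 genes, 5 higher in each mutant genotype) were 279 and 462 CPM in Ercc1-/Δ livers, 408 and 446 CPM in compound mutant livers and 188 to 344 CPM in WT livers. General leukocyte markers (5 genes, 1 higher in Ercc1-/Δ and 3 in compound mutant livers) summed to 48.1 and 78.4 CPM, 73.8 and 80.5 CPM, and 27.1 to 54.7 CPM in the same order of genotypes. Neutrophil markers (7 genes, of which 2 were tested and both rose in Ercc1-/Δ livers) summed to 5.57 and 4.04 CPM, 2.37 and 1.78 CPM, and 0.811 to 1.5 CPM, with Ly6g and Camp at 0 in 6 and 6 of the 8 libraries. T and NK markers (9 genes, 0 and 2 higher) summed to 5.20 and 9.47 CPM, 10.9 and 10.2 CPM, and 5.37 to 7.31 CPM. B and plasma cell markers (7 genes, 0 and 3 higher of 6 tested) summed to 10.5 and 28.9 CPM, 28.3 and 24.4 CPM, and 13.3 to 20.7 CPM. Stellate and fibroblast markers (6 genes, 2 higher in each) summed to 224 and 416 CPM, 370 and 351 CPM, and 188 to 260 CPM. Cholangiocyte markers (5 genes, 1 higher in each) summed to 42.2 and 47.8 CPM, 60.9 and 55.6 CPM, and 28.8 to 34.2 CPM. Most of that sum was Spp1, the 1 gene called, with 31.7 and 40.9 CPM, 53.6 and 48.3 CPM, and 23.9 to 28.2 CPM. In compound mutant livers 4 of the 5 had fold changes above 0. Sox9 was lower there, at 1.74 and 1.23 CPM against 2.05 to 3.34 CPM in WT livers (-0.78 ± 0.43, adjusted p = 0.234 by edgeR).

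Other markers were lower or level. Over all genes 9.5% were called lower in Ercc1-/Δ and 7.4% in compound mutant livers, and 11.3% and 10.6% higher. Erythroid markers (7 genes, 2 of 6 tested lower in Ercc1-/Δ livers) summed to 122 and 162 CPM in Ercc1-/Δ livers, 99.5 and 245 CPM in compound mutant livers and 232 to 483 CPM in WT livers. Endothelial markers (6 genes, 1 higher and 1 lower in each genotype) summed to 173 and 215 CPM, 194 and 217 CPM, and 205 to 223 CPM, and hepatocyte markers (9 of 10 listed genes in the table, 4 lower in each) to 89700 and 89100 CPM, 88500 and 89000 CPM, and 117000 to 141000 CPM. WT library 4, the WT liver with the most cell cycle transcript, had 191 CPM of macrophage and 28.3 CPM of leukocyte markers, at the low end of the WT range. Ercc1-/Δ library 1, with the larger MCM sum of its pair, had the lower macrophage, leukocyte, T, B and stellate sums of that pair. Its neutrophil sum was the higher one. Compound mutant library 2, likewise with the larger MCM sum, had the higher macrophage and leukocyte sums of its pair. Its T, B, stellate and neutrophil sums were the lower ones (10.2, 24.4, 351 and 1.78 CPM against 10.9, 28.3, 370 and 2.37 CPM). The part of these cells in the results on cell cycle genes was not tested.

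Exons of 18 of the 57 members overlap another gene in the GENCODE annotation of this build, 3 on the same strand (Foxm1, Mcm7 and Top2a) and 16 on the other strand, Mcm7 on both. The members lie on 19 chromosomes. Whether counting used strand was not given in the sources used here, so counts of such genes could include reads of their neighbours. Among the 11 members called in compound mutant livers the overlaps were those of Ccne2 with Ints8 (609 bases), Ube2c with Tnnc2 (592 bases), Kif4 with Pdzd11 (832 bases), Nusap1 with Oip5 (172 bases), Plk1 with the predicted gene Gm44985 (156 bases) and Foxm1 with Tex52 and Gm44596 (241 bases). E2f1, Mcm6, Pbk, Melk and Mad2l1 had none.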

How the data were processed

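The deposited table holds raw read counts per gene for 8 liver libraries, and the values are whole numbers. Per the submitters' processing notes, the authors used FastQC, HISAT2 2.1.0, featureCounts and GRCm38/mm10, and per the labels' protocols RNA was extracted with Trizol and libraries were made with a stranded total RNA kit. The annotation release, the strand setting and the treatment of multimapping reads were not given in the sources used here. Counts were fitted in 1 model of 3 genotypes with edgeR 4.0.16 (TMM factors, filterByExpr, quasi-likelihood test) in R 4.3.3, and p-values were adjusted by Benjamini and Hochberg over 15598 genes, with a threshold of 0.05. Standard errors were derived from the fold change and its F statistic. The fit had 5 residual degrees of freedom and was tested on simulated data. The replicates are separate mice, so p-values measure the spread between mice. DESeq2 1.42.0 and limma-voom (limma 3.58.1), other scaling factors and filters, fits restricted to a pair of genotypes, a covariate for age and each library left out were alternatives. The members and lists were chosen with earlier results of these data known. Genes named in the text are up to 4 per role with the smallest p in Ercc1-/Δ against WT, E2f7, E2f8 and Anln, members with a fold change below 0 against WT, and 3 genes per further list. Exon overlaps come from GENCODE M21 and promoters from RefSeq (GRCm38.p6). Shares of promoters are descriptions, and a depth of 21556570 to 27812478 counts per library leaves members with fewer than about 1 CPM to rest on few reads.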

Additional observations from a re-analysis of the deposited data

Results flagged for a closer look

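Among 47 values over the 4 WT livers (the named members and the mean levels of the classes), 8 had 1 library whose distance from the rest, as a share of the group's range, passed Dixon's 95% critical value, where chance gives about 1 in 20. In 6 of the 8, WT library 4 was the high one, with 9.77 CPM of Mcm6, 2.35 CPM of Ccna2, 2.93 CPM of Cdc20, 1.2 CPM of Cenpe, 2.01 CPM of Racgap1 and a mean deviation of 0.33 for S-phase members on the log2(CPM + 0.5) scale. In the other 2, WT library 2 was high, with 2.32 CPM of E2f7 and 157 CPM of Tk1. The groups of mutant mice were too small for this check.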

How the results depend on the processing

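No paired analysis was possible because the labels give no number or origin that links mice of different genotypes. The members called against WT numbered 31 in Ercc1-/Δ livers, 0 with age as a covariate and 6 to 41 with libraries left out in turn, and 11 in compound mutant livers, 24 without scaling factors, 34 without a filter, 25 with DESeq2, 23 with limma-voom and 1 to 33 with libraries left out. Over all genes, 24 were higher and 17 lower in Ercc1-/Δ livers with age as a covariate, against 1761 and 1482. At unadjusted p under 0.05 (edgeR), 2408 of all genes passed with that covariate, against 5550. In compound mutant livers 3508 were higher and 490 lower without scaling factors, against 1646 and 1154. Calls of higher genes thus grew over the whole table in that setting. The numbers were 1936 and 1331 without a filter (25609 genes tested), 1857 and 1647 with DESeq2, and 1820 and 1189 with limma-voom. Members called in Ercc1-/Δ livers numbered 43 without scaling factors, 42 without a filter and 36 with DESeq2 or limma-voom. Between the mutant genotypes the count was 0 with each library left out. Without scaling factors the median of all genes moved by 0.26 in Ercc1-/Δ and 0.27 in compound mutant livers. S-phase minus mitotic was -1.57 and -1.35 with limma-voom, against -1.21 and -0.81, and libraries left out gave -1.78 to -0.97, -1.67 to -0.13 and, between the mutant genotypes, 0.02 to 0.98.

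Signs turned as follows, and the cause was not tested. In Ercc1-/Δ against WT, age as a covariate gave Ccne1 -0.52, Mcm3 -0.06, Mcm6 -0.15, Ccna2 -0.20 and Birc5 -0.14. Mybl2 was 0.17 and Gmnn 0.18 without scaling factors, and Mybl2 0.02 with limma-voom. Libraries left out gave Gmnn -0.20 to 0.01, Mybl2 -0.27 to 0.15 and Tyms -0.07 to 0.60. In compound mutant against WT, Mybl2 was -0.00 with age and -0.60 to 0.53, and Gmnn -0.00 to 0.23, with libraries left out. Between compound mutant and Ercc1-/Δ, Ccnd1 was -0.01 with RLE factors, DESeq2 or 2 groups only, and Mcm6 was 0.00 with upper-quartile factors and 0.01 with limma-voom.

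With age as a covariate, that comparison gave E2f2 0.84, E2f7 0.67, Foxm1 0.05, Mcm2 0.73, Mcm3 0.81, Mcm4 0.90, Mcm6 1.41, Rrm1 -0.17, Tyms 0.07, Cdk1 0.59, Ccnb1 0.08, Ccnb2 0.34, Ccna2 1.76, Aurka 0.85, Aurkb 1.53, Pbk 1.85, Melk 0.24, Mad2l1 0.22, Cdc20 0.32, Ube2c 0.83, Kif4 0.48, Cenpe 0.18, Birc5 0.79, Anln 0.45, Ect2 0.60, Racgap1 0.65, Mki67 0.18 and Top2a 0.73. Libraries left out there gave Ccna2 -1.07 to 0.01, Ccnd1 -0.24 to 0.32, Ccne1 -0.37 to 1.19, Ccne2 -0.32 to 0.81, Cenpa -0.23 to 0.14, Cenpf -1.67 to 0.11, E2f2 -1.14 to 0.05, Mcm2 -0.67 to 0.19, Mcm3 -0.80 to 0.25, Mcm4 -0.69 to 0.31, Mcm6 -0.41 to 0.50, Mybl2 -0.50 to 0.63, Rrm1 -0.07 to 0.12 and Tyms -0.46 to 0.20.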
